A study of Homo sapiens with 4 samples.

Results

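The Hippo pathway was followed through 10 of its genes: the coactivators YAP1 and WWTR1 (the gene of TAZ), the kinases LATS1 and LATS2, the DNA-binding partners TEAD1 to TEAD4, and the target genes CCN1 and CCN2, formerly CYR61 and CTGF. The genes were chosen by name, with earlier results of these data known. Each of the 10 had 1 probe set (several short probes that are read together for 1 transcript) in the deposited table. That table listed 20323 probe sets, through which 17716 genes could be named. Whether the array holds other probe sets for these genes was not examined. The samples were Hs683 cells, an established human glioma line, with a knockdown of QK (now QKI), which encodes an RNA-binding protein. On 2 arrays the cells had also been transduced with miR-20a, and on the other 2 with a scrambled microRNA that has no intended target (miR-NT), so the knockdown was common to both groups and no array without it was analysed here. The labels do not say how QK was knocked down, whether a pool or a single clone was used, or whether the replicates were separate cultures, so the p-values rest on differences among the 4 arrays alone, part or all of which may be technical.

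In the Hippo pathway, upstream kinases activate LATS1 and LATS2, which phosphorylate YAP1 and TAZ and hold them outside the nucleus. When LATS activity is low, YAP1 and TAZ enter the nucleus, bind TEAD factors, which recognise DNA on their own but need a coactivator to drive transcription, and switch on genes such as CCN1 and CCN2. These encode secreted proteins of the extracellular matrix and are widely used as readouts of the pathway. In gliomas YAP1 and TAZ are known for promoting growth and invasion. Arrays measure transcripts, and so they do not show the phosphorylation or the location of YAP1 and TAZ, through which most of the regulation works.

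The added microRNA is shown first, with relatives that share its seed, because the seed is the stretch through which a microRNA pairs with its target transcripts. Capitals mark bases 2 to 8, the seed. The sequences are the mature forms in RefSeq (GRCh38.p14), and miR-20a-5p lies at chr13:91351072-91351094 on the plus strand. Of 2370 mature microRNAs in that table, 8 have the same seed.
miR-20a-5p: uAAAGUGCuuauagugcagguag
miR-17-5p: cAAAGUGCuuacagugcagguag
miR-93-5p: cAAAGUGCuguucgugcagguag

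The TEAD factors read the sequence GGAATG, which is CATTCC on the opposite strand. It is shown in the promoters because CCN2 is a textbook target of TEAD factors. Windows from 250 bases before to 50 bases after the start of transcription were available in RefSeq (GRCh38.p14) for 7 of the 10 genes, and for CCN1, TEAD1 and TEAD4 none was used here. Of all 35116 windows in the table, 14.0% held GGAATG on either strand, and 0.128% held it 3 or more times. CCN2 was among the latter with 3 matches, YAP1 and LATS2 had 1 each, and the windows of WWTR1, LATS1, TEAD2 and TEAD3 had no match. The stretches with the matches in capitals, read along the strand of the gene, are at chr6:131951450-131951553 on the minus strand for CCN2, at chr11:102110273-102110302 on the plus strand for YAP1 and at chr10:90921198-90921319 on the minus strand for ANKRD1, another established target. The single match of LATS2 lies after its start of transcription. ANKRD1 had 2 matches, and 1.37% of all windows held 2 or more. The published target set described below had 15 windows, from 13 genes, and 6 of these windows had a match. NUAK2, which had no value in these data, was among the genes with a match. A match describes the letters only and is not a measured binding site.
CCN2: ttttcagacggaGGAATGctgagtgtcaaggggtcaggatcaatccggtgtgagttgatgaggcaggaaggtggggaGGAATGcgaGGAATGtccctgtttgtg
YAP1: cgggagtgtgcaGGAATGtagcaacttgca
ANKRD1: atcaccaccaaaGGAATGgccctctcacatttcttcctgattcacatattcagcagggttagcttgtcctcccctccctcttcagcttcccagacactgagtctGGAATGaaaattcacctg

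Values are log2 expression values, and a difference of 1 is a 2-fold difference. Levels of different probe sets are not compared with each other. Over all probe sets the array medians ranged from 6.43 to 6.45. The 5' control signals of ACTB and GAPDH, which are commonly read for the integrity of RNA and labelling, stood apart on the miR-20a arrays. ACTB 5' measured 12.78 and 12.66 on the miR-NT arrays, against 11.59 and 10.43 on the miR-20a arrays. GAPDH 5' measured 13.89 and 13.81 against 13.17 and 12.30, and both were lowest on miR-20a replicate 2. No 3' control signal was set beside them, so lower 5' signals were not told apart from less ACTB and GAPDH transcript. QKI itself measured 8.14 and 7.92 on the miR-NT arrays, against 7.52 and 7.08 on the miR-20a arrays, and did not pass the test between the groups (limma adjusted p = 0.106). Of the marker genes examined, 5 of 10 glial and glioma markers were bright enough to be tested: VIM, CD44, SOX2, SOX9 and SOX10. VIM was at 14.02 or above on every array, and CD44 at 11.24 and 11.12 with miR-NT against 10.53 and 10.08 with miR-20a. The others, NES, GFAP, S100B, OLIG1 and OLIG2, were dim on the probe set used. Of epithelial markers 3 of 5 were kept, KRT18 among them and EPCAM and CDH1 not, of immune markers 2 of 5 measured (7 were listed), PTPRC not among them, and of endothelial markers 1 of 4. The mean level of each of these 4 lists differed between the lowest and the highest array by at most 0.16. Single markers differed by more: the log2 fold change was −0.87 for CD44, 0.30 for PECAM1 and 0.28 for CD3E (limma adjusted p = 0.0949, 0.202 and 0.215), and their part in the results was not tested.

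With miR-20a, YAP1, CCN1 and WWTR1 were lower on both arrays than on either control array, with group means 1.56-fold, 1.78-fold and 1.19-fold lower. So were 31.1% of all tested genes, and TEAD2, which was too dim for the test. In RNA of whole cultures, fewer cells with a transcript and less of it per cell cannot be told apart. None of the 8 genes bright enough to be tested passed the threshold of an adjusted p under 0.05 in limma over 12401 genes, where 0.00806% of all genes did. WWTR1 and CCN2 had smaller negative differences, and TEAD1, TEAD3, TEAD4 and LATS2 lay within 0.15 of 0 on the log2 scale. Without miR-20a replicate 1 the log2 fold changes of YAP1, CCN1 and CCN2 were −0.84, −1.15 and −0.67. Without replicate 2 they were −0.44, −0.52 and −0.06. Those fits take the spread from the control pair alone, so only fold changes are given for them. LATS1 and TEAD2 were among the dimmest 30% and were not tested. At an unadjusted p under 0.05, 2 of the 8 were lower and 0 were higher, beside 13.2% and 5.82% of all tested genes.

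**Figure D1:**
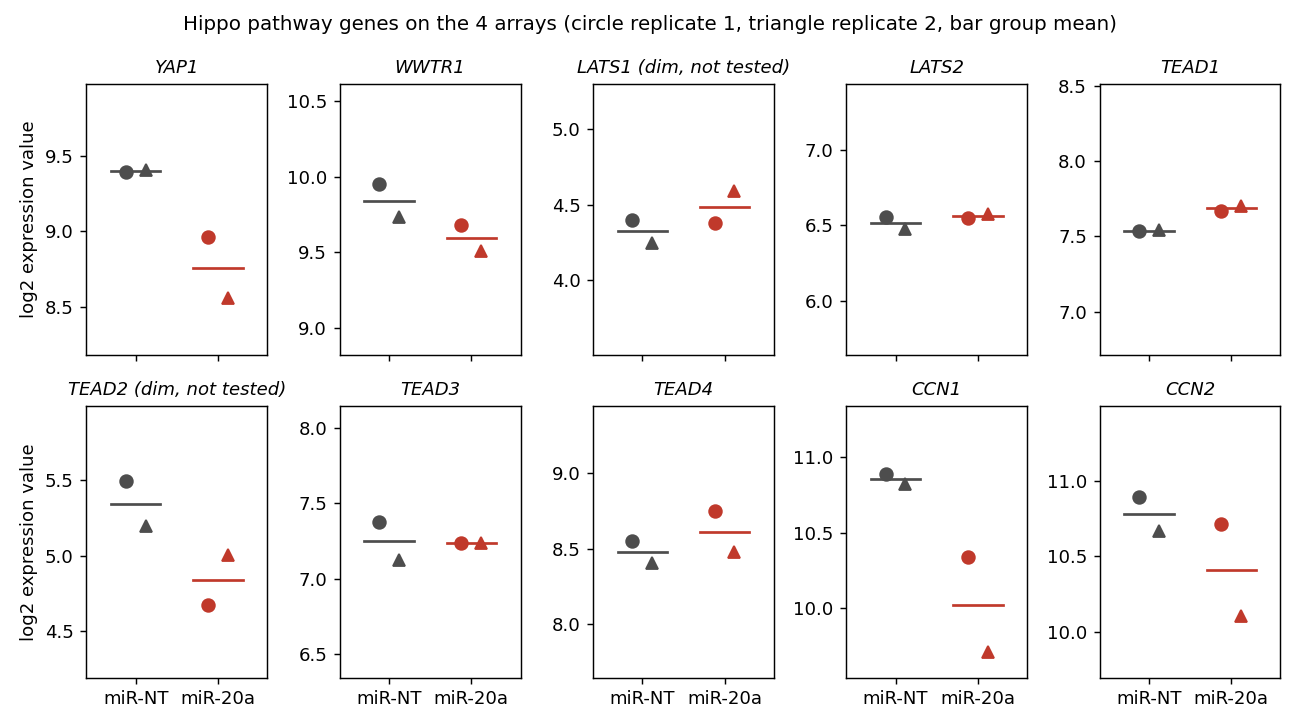
Log2 expression value (vertical axis, each panel spanning the same range) of the 10 genes on the miR-NT and miR-20a arrays; circles are replicate 1, triangles replicate 2 and bars group means. Both miR-20a points of YAP1 (8.96 and 8.56) and of CCN1 (10.34 and 9.71) lie below both control points, whereas those of TEAD3 and LATS2 lie within or beside the control points.

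YAP1, the coactivator that binds TEAD factors, measured 9.39 and 9.41 on the miR-NT arrays, against 8.96 and 8.56 on the miR-20a arrays. The control arrays nearly coincided, both miR-20a arrays were below them, and miR-20a replicate 2 was the lowest. The log2 fold change was −0.64 (SE 0.14, 95% interval −0.97 to −0.31, limma adjusted p = 0.113), which did not pass. Of all tested genes, 2.06% had a lower fold change. Leaving out miR-20a replicate 1 gave −0.84, and leaving out replicate 2 gave −0.44. Adjusted for the ACTB 5' signal of each array, which leaves 1 degree of freedom between arrays, the fold change was −0.04 (SE 0.25, the same for every gene in that fit). Since that signal was lower on both miR-20a arrays, no such adjusted value can tell it apart from miR-20a.

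WWTR1, whose product TAZ acts beside YAP1, measured 9.95 and 9.73 on the miR-NT arrays, against 9.68 and 9.51 on the miR-20a arrays. Both miR-20a arrays lay below both controls, but the gap of the nearest pair was smaller than the distance within either group. The log2 fold change was −0.25 (SE 0.12, 95% interval −0.52 to 0.02, limma adjusted p = 0.292). Leaving out miR-NT replicate 1 gave −0.14, and leaving out miR-20a replicate 2 gave −0.16. Adjusted for ACTB 5' it was 0.03. Whether YAP1 differed more than WWTR1 was not tested.

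LATS2, one of the kinases that restrain YAP1 and TAZ, measured 6.56 and 6.48 on the miR-NT arrays, against 6.55 and 6.58 on the miR-20a arrays. The groups overlapped, and all 4 arrays lay close together. The log2 fold change was 0.05 (SE 0.10, 95% interval −0.18 to 0.27, limma adjusted p = 0.772). Adjusted for ACTB 5' it was 0.02. Whether LATS2 and YAP1 differed in response was not tested. Other members of the seed family shown above, such as miR-93, are known to act on LATS2, which did not differ beyond the spread between replicates here.

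LATS1, the paralogous kinase, measured 4.40 and 4.25 on the miR-NT arrays, against 4.38 and 4.59 on the miR-20a arrays, below the dimmest tested gene, whose mean was 5.46. At such a level the groups overlapped and no difference was detectable. Without the filter on dim genes its log2 fold change was 0.16 (limma adjusted p = 0.467).

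Of the TEAD factors, TEAD1 measured 7.54 and 7.54 on the miR-NT arrays, against 7.67 and 7.70 on the miR-20a arrays. The groups did not overlap, and it was the only tested member of the 10 genes with both miR-20a arrays above both controls, as 25.1% of all tested genes were. Its log2 fold change of 0.15 (SE 0.09, 95% interval −0.07 to 0.37) did not pass (limma adjusted p = 0.398). TEAD4 measured 8.55 and 8.41 on the miR-NT arrays, against 8.75 and 8.48 on the miR-20a arrays, so that the groups overlapped. Its log2 fold change was 0.14 (SE 0.12, limma adjusted p = 0.533), and it became −0.00063 when miR-20a replicate 1 was left out and 0.55 when adjusted for ACTB 5'.

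TEAD3 measured 7.37 and 7.13 on the miR-NT arrays, against 7.24 and 7.24 on the miR-20a arrays. The miR-20a arrays lay between the controls, and the log2 fold change was −0.01 (SE 0.11, limma adjusted p = 0.955). TEAD2 measured 5.49 and 5.20 on the miR-NT arrays, against 4.67 and 5.003 on the miR-20a arrays. It was too dim for the test although both miR-20a arrays were lower. Without the filter its log2 fold change was −0.51 (SE 0.15, limma adjusted p = 0.189).

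CCN1, a secreted matrix protein that binds integrins, measured 10.89 and 10.82 on the miR-NT arrays, against 10.34 and 9.71 on the miR-20a arrays. The 2 control arrays were close, both miR-20a arrays were below them, and the miR-20a arrays differed from each other by more (−0.63 for replicate 2 minus 1) than the controls did (−0.07). Its log2 fold change of −0.83 (SE 0.19, 95% interval −1.27 to −0.39) did not pass (limma adjusted p = 0.116), and 0.968% of all tested genes had a lower one. Leaving out miR-20a replicate 1 gave −1.15, and leaving out replicate 2 gave −0.52. Adjusted for ACTB 5' it was 0.10 (SE 0.25).

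CCN2, a related matrix protein with the promoter matches shown above, measured 10.89 and 10.67 on the miR-NT arrays, against 10.72 and 10.11 on the miR-20a arrays. Here the groups overlapped, since miR-20a replicate 1 lay between the controls and only replicate 2 was below them. The log2 fold change was −0.37 (SE 0.19, 95% interval −0.82 to 0.08, limma adjusted p = 0.327). Leaving out miR-20a replicate 1 gave −0.67, and leaving out replicate 2 gave −0.06. Adjusted for ACTB 5' it was 0.56 (SE 0.25, limma adjusted p = 0.631), which did not pass. Transcripts of CCN2 are a known target of other microRNAs of the cluster that encodes miR-20a, which are not part of the transduced sequence as labelled. The level of miR-20a itself was not analysed here.

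Of the 8 tested genes, 5 lay below 0 and 3 above, beside 53.8% of all tested genes below 0. The median log2 fold change of the 8 was −0.13, beside −0.02 for all tested genes. Leaving out miR-NT replicate 2 moved that median to −0.25, leaving out miR-NT replicate 1 to −0.03, and leaving out miR-20a replicate 2 to −0.04. In 3 of them (YAP1, WWTR1 and CCN1) both miR-20a arrays lay below both controls, beside 31.1% of all tested genes. The difference between the miR-20a arrays, replicate 2 less replicate 1, was −0.41 for YAP1, −0.17 for WWTR1 and −0.63 for CCN1. It was −0.61 for CCN2 and −0.27 for TEAD4, and these 5 were lower on the array with the lower 5' control signals. For TEAD1, LATS2 and TEAD3 it was 0.03, 0.02 and 0.0014. So 62.5% of the 8 were lower on replicate 2, beside 58.9% of all tested genes. The same difference between the miR-NT arrays was 0.02 for YAP1, −0.22 for WWTR1, −0.07 for CCN1, −0.23 for CCN2 and −0.14 for TEAD4. For TEAD1, LATS2 and TEAD3 it was 0.00047, −0.08 and −0.25 between the miR-NT arrays. YAP1, CCN1 and CCN2, which have the most negative fold changes of the 8, also differed most within the miR-20a pair. Both quantities hold the same arrays. The ACTB 5' signal was lower on both miR-20a arrays than on either control array. As far as that signal reflects RNA or labelling quality, such quality cannot be told apart from miR-20a here. The adjusted fits do not separate them.

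**Figure D2:**
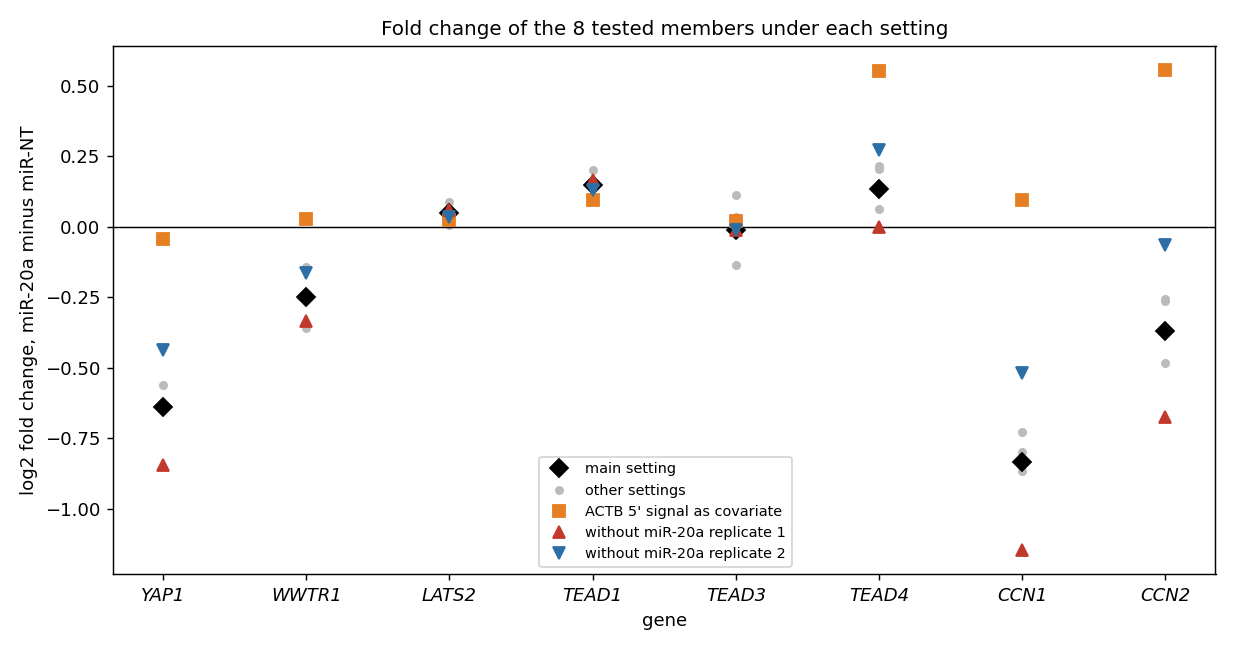
Log2 fold change of miR-20a minus miR-NT (vertical axis) for each of the 8 tested genes under the main setting and 12 alternatives. YAP1 and CCN1 lie well below 0 in the main setting (−0.64 and −0.83) and near 0 when adjusted for the ACTB 5' control signal (−0.04 and 0.10), while LATS2 and TEAD1 stay close to their main value. The ACTB 5' signal was lower on both miR-20a arrays, so the adjusted values cannot separate it from miR-20a.

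Other genes of the pathway gave no common direction. Of 24 upstream regulators and cofactors, 18 were bright enough to be tested, and 10 lay above 0 and 8 below, beside 53.8% of all tested genes below 0. The median log2 fold change of the 18 was 0.07, beside −0.02 for all tested genes. Leaving out miR-20a replicate 1 moved the median to −0.01, leaving out miR-NT replicate 1 to 0.13, and leaving out miR-NT replicate 2 to 0.0083. None passed over all genes in limma, and at an unadjusted p under 0.05 there was 1 lower and 1 higher, beside 13.2% and 5.82% of all tested genes. The lower one was SAV1, the scaffold of the upstream kinases STK3 and STK4, which measured 8.03 and 7.85 on the miR-NT arrays, against 7.68 and 7.32 on the miR-20a arrays (log2 fold change −0.44, SE 0.14, limma adjusted p = 0.184). Adjusted for ACTB 5' it was 0.12, and it was −0.63 without miR-20a replicate 1 and −0.26 without replicate 2. The higher one was LIMD1, a LIM protein that binds LATS kinases, at 7.52 and 7.42 against 7.64 and 7.83 (log2 fold change 0.27, SE 0.11, limma adjusted p = 0.247). Leaving out miR-20a replicate 2 gave 0.18, and adjusted for ACTB 5' LIMD1 was at 0.013. The kinases STK3 and STK4 themselves were at 0.07 and 0.16, and WWC1, an activator of LATS kinases, was at 0.21. DCHS1, a cadherin upstream of the pathway, was at −0.25, or 0.03 after that adjustment and −0.15 with miR-20a replicate 2 left out.

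A published set of YAP and TAZ target genes, without CCN1, CCN2, LATS2 and PTPN14, which are counted elsewhere, had 17 tested genes of 18. Of these, 11 lay below 0 and 6 above, beside 53.8% of all tested genes below 0. The median log2 fold change of the 17 was −0.15, beside −0.02 for all tested genes, and none of the 17 passed over all genes in limma. At an unadjusted p under 0.05, 7 were lower and 2 were higher, beside 13.2% and 5.82% of all tested genes. Both miR-20a arrays lay below both controls in 9 genes and above them in 3, beside 31.1% and 25.1% of all tested genes. On miR-20a replicate 2 against replicate 1, 15 of the 17 genes were lower, beside 58.9% of all tested genes, and so were all 9 of those below both controls, beside 78.1% of all such genes. Leaving out miR-20a replicate 1 moved the median to −0.26, and leaving out replicate 2 moved it to −0.06. The medians of all tested genes in those fits were −0.02 and −0.01. Adjusted for ACTB 5' the median of the targets was 0.12, and the median of all genes in that fit was 0.05.

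The targets with the smallest p were IGFBP3, ASAP1, MYOF and AXL, all lower. ASAP1, a GTPase-activating protein of ARF proteins, measured 8.02 and 8.01 on the miR-NT arrays, against 7.41 and 6.85 on the miR-20a arrays (log2 fold change −0.89, SE 0.17, limma adjusted p = 0.0963). Its control arrays nearly coincided, and both miR-20a arrays were below them. MYOF, which acts in membrane repair, measured 9.44 and 9.36 against 8.99 and 8.60 (−0.61, SE 0.14, limma adjusted p = 0.116). AXL, a receptor tyrosine kinase, measured 12.27 and 12.05 against 11.91 and 11.44 (−0.48, SE 0.16, limma adjusted p = 0.204). With miR-20a replicate 2 left out these 3 fold changes were −0.61, −0.42 and −0.25, and with replicate 1 left out −1.16, −0.81 and −0.72. After adjustment for ACTB 5' they were −0.07, −0.03 and 0.24, while IGFBP3, which binds insulin-like growth factors, went from −1.15 (SE 0.15, limma adjusted p = 0.0727) to −0.54. Of the other 13 tested targets, 7 also lay below 0, among them DOCK5 (−0.37), TGFB2 (−0.27), CRIM1 (−0.25) and CCDC80 (−0.24), and 6 lay above 0, with NT5E (0.29) and RBMS3 (0.25) the highest. ANKRD1, whose promoter is shown above, measured 7.21 and 7.11 against 7.41 and 7.22 (0.15, SE 0.11), AMOTL2 was at 0.11, and F3, the gene of tissue factor, was at 0.02 (SE 0.09).

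**Figure D3:**
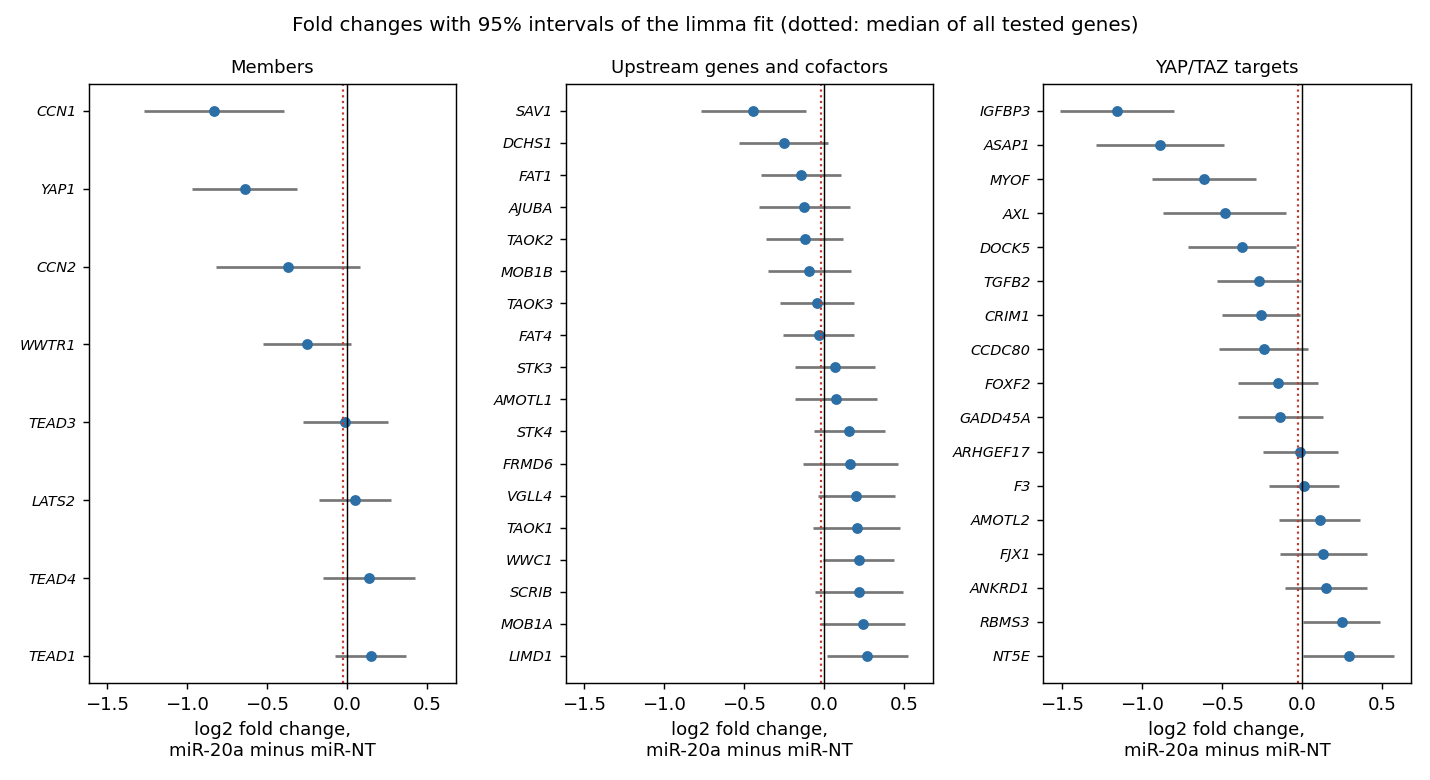
Log2 fold change of miR-20a minus miR-NT (horizontal axis) with its 95% interval from limma for the 8 tested genes, 18 upstream genes and cofactors and 17 YAP/TAZ targets; the dotted line is the median of all tested genes (−0.02). Intervals of YAP1 and CCN1 lie below 0 and those of the TEAD genes and LATS2 include 0; none of the genes passed after adjustment.

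The other proteins of the CCN family did not share 1 direction, and none of the 3 tested passed in limma. At an unadjusted p under 0.05, 1 was higher and 0 were lower, beside 5.82% and 13.2% of all tested genes. CCN3 measured 9.07 and 8.96 on the miR-NT arrays, against 9.20 and 9.33 on the miR-20a arrays (log2 fold change 0.25, SE 0.10, limma adjusted p = 0.251). Both miR-20a arrays were the higher ones, as in 25.1% of all tested genes. After adjustment for ACTB 5' the fold change of CCN3 was 0.073. CCN4 was at −0.16 (SE 0.11) and CCN5 at 0.05 (SE 0.11). CCN6 was too dim for the test. Whether CCN1 and CCN3 differed in response was not tested.

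The genes whose 4 array values, each minus the mean of the gene, lay nearest to those of CCN1 were ADAMTS1, a secreted metalloproteinase, the actin-severing protein CFL1 and PA2G4, at Euclidean distances of 0.04, 0.04 and 0.05 on the log2 scale. Their log2 fold changes were −0.85, −0.83 and −0.81. For CCN2 the nearest were KCTD20, PPA2 and ABI1, at distances of 0.04, 0.07 and 0.07, with fold changes of −0.40, −0.41 and −0.36. These likenesses rest on 4 arrays and were searched among 12401 genes.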

How the data were processed

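The deposited table held 1 log2 expression value per probe set and array for 20323 probe sets, on a scale judged from the range of the values. Per the submitters' processing notes the authors used the R package affy, while summarisation, background correction and normalization are not given in these sources. Per the labels' protocols, cRNA was made from 6 ug of total RNA. Groups come from the source names and replicate numbers from the titles.

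Probe sets with 1 symbol (18060) were named through the platform annotation and RefSeq gene identifiers. The probe set with the highest mean stood for a gene, the 5315 dimmest genes (30%) were left out, and the other 12401 entered a moderated linear model (limma 3.58.1, R 4.3.3), two-sided, with p-values adjusted by Benjamini-Hochberg. The number of arrays limits the precision: the fit had 2 residual degrees of freedom. An exact permutation test over 4 arrays was not run, since it cannot reach the threshold. The fit was tested on simulated data.

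The members and lists were chosen with earlier results of these data known. Text names the 10 members, up to 4 genes of each list by smallest p, and the 3 nearest genes of CCN1 and of CCN2; STK3, STK4, ANKRD1, AMOTL2, F3, the other targets and the markers were named after their values were seen. Alternatives were quantile normalization, median centring, 2 filters, a robust prior with an intensity trend, averaged probe sets, adjustment for the ACTB 5' signal, the replicate number as a block and each array left out.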

Additional observations from a re-analysis of the deposited data

How the results depend on the processing

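No member passed in limma under quantile normalization, median centring, either other filter or a robust prior with an intensity trend. The same held with the ACTB 5' covariate and with the replicate block. Averaging probe sets could not change the members' own values, since each had 1 probe set, and in that fit none passed. With an array left out, where a lone array is assumed to vary like the other group, the number of members passing ranged from 0 to 3: YAP1, CCN1 and CCN2 without miR-20a replicate 1, and CCN1 (1 member) without replicate 2. The members' median ranged from −0.25 to −0.03 in those fits. With the ACTB 5' covariate it was 0.063, and WWTR1 (0.029), TEAD3 (0.021), CCN1 (0.10), CCN2 (0.56), SAV1 (0.12), DCHS1 (0.034), AXL (0.24) and CCN5 (−0.31) changed sign. TEAD3 was at 0.034 after quantile normalization. With an array left out, TEAD3 ranged from −0.14 to 0.11, TEAD4 from −0.00063 to 0.27 and CCN5 from −0.076 to 0.17. The cause was not tested.

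Over all genes, 1 was called lower and 0 higher. The lower count was 5 after quantile normalization, 9 after median centring, 4 with the dimmest 50% left out and 23 (with 1 higher) with the intensity trend, where IGFBP3 also passed. It was 5 (with 1 higher) with the covariate, and ranged from 0 to 1567 (higher, 0 to 302) with an array left out. Same-numbered arrays share only a number; their deviations had a correlation of 0.27 over genes, and with the replicate block 0 genes were called lower and no member passed.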
